A study of Homo sapiens with 7 samples.

Results

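The promoter loops of 10 estrogen response genes, GREB1, XBP1, MYB, SIAH2, TFF1, TFF3, CXCL12, CA12, PDZK1 and ADCY9, were described in 3 human cancer cell lines. They were chosen by name from genes known to respond to estrogen, out of 20162 protein-coding genes of the GENCODE annotation on GRCh37 (hg19). H3K27ac HiChIP joins DNA that lies close together in the nucleus and keeps the pieces carrying acetylated lysine 27 of histone H3, a mark of active promoters and enhancers. A loop is a pair of different anchors on 1 chromosome with the number of read pairs that join them, and it was assigned to a gene when an anchor overlapped a window of 500 bp centred on any start site of the gene.

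The breast ductal carcinoma line T-47D was represented by 1 sample, the endometrial adenocarcinoma line Ishikawa by 4 and the prostate carcinoma line LNCaP by 2. All 3 are established lines, and each was deposited as 1 list of loops with its samples combined. In Ishikawa, 2 samples were given the vehicle DMSO and 2 were given 10 nM 17beta-estradiol (E2) for 1 h, and the list does not separate them, so vehicle and E2 were not compared. The labels give no treatment for T-47D or LNCaP. Chromatin of Ishikawa was cut with DpnII and that of T-47D and LNCaP with MboI. Sonication, read length and sequencing depth also differed in this way, with shorter reads and deeper sequencing for Ishikawa. In any comparison with Ishikawa the cell line and the protocol therefore cannot be told apart.

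The T-47D list held 42027 loops and 351260 read pairs, the Ishikawa list 163530 loops and 1040329 read pairs, and the LNCaP list 149226 loops and 1805322 read pairs. Levels are therefore given as shares, the read pairs of a gene's promoter loops per 100000 read pairs of the list. Promoter loops held only 37.2% of the Ishikawa read pairs. For LNCaP this was 62.5%, and for T-47D it was 72.6%. Shares of promoter loops are thus lower as a whole for Ishikawa, before any single gene is considered. The smallest count listed for a loop was 3. Where a list had no loop for a gene, it was set to this floor of 3 read pairs to form a fold, which is a share of 0.854 for T-47D, 0.288 for Ishikawa and 0.166 for LNCaP. The floor is not an upper limit, because the filters were applied loop by loop, so several weaker loops may have been removed, and because nothing is counted where no anchor covers a start site. Replicate error cannot be estimated from a single list for each line, so no test between lines was made. The 95% intervals given are exact Poisson intervals of read pairs, or exact conditional binomial intervals of a ratio of shares, and they cover counting error only. The markers of each line fitted its label in part. GATA3, TRPS1 and PGR had shares of 147 to 728 in T-47D and at most 0.673 elsewhere, and PAX8, SOX17 and EMX2 had promoter loops in Ishikawa alone, with shares of 2.60 to 15.6. KLK3 and TMPRSS2 had their highest shares in LNCaP (163 and 58.5), although TMPRSS2 also reached 22.2 in Ishikawa. Of the epithelial genes, KRT18 had no promoter loop in T-47D and EPCAM only 3 read pairs in Ishikawa. ESR1, which encodes estrogen receptor alpha, had shares of 55.5, 28.7 and 0.443 in T-47D, Ishikawa and LNCaP.

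Estrogen receptor alpha is a nuclear receptor that binds DNA when it carries estradiol. Its preferred site, the estrogen response element (ERE), is an inverted repeat spelled GGTCANNNTGACC, which reads the same on both strands. Most receptor binding lies in enhancers away from promoters, and loops are one way in which such enhancers come near the genes they act on. The sequences below are reference sequence from GRCh37 on the strand of the gene, not reads of these cells. They are the exact EREs found inside distal anchors joined to a promoter of the genes, a distal anchor being one over no promoter window, and the element nearest to the TFF1 start site. Capitals mark the element.
GREB1 +30.6 kb: gataatcaGGTCAAAATGACCttctttca
GREB1 +42.3 kb: tctcaaaaGGTCATCATGACCttattgtc
GREB1 +50.2 kb: ggcaactgGGTCATTCTGACCtagaagca
SIAH2 +6.83 kb: ttttcacaGGTCACCATGACCtggaacta
TFF1 -0.399 kb: ccctgcaaGGTCACGGTGGCCaccccgtg
The 3 GREB1 elements lie at chr2:11653028-11653056, chr2:11664718-11664746 and chr2:11672652-11672680 on the plus strand, all inside the gene. The SIAH2 element lies at chr3:150474423-150474451 on the minus strand, inside an intron-centred anchor. The TFF1 element, at chr21:43787029-43787057 on the minus strand, carries the substitution A11G, counted from 1 at the 5′ end of the element with the letter of the motif first.

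Compared gene by gene, 5 of the 9 genes with enough read pairs to compare had a share at least 4-fold higher in T-47D than in LNCaP, and 2 had a share at least 4-fold lower. Among all 11352 protein-coding genes compared in the same way, 19.1% were called higher and 13.5% lower. A gene was compared when it had 10 or more read pairs in either list, and a list with no loop was set to the floor. GREB1, MYB, SIAH2, CXCL12 and ADCY9 were higher in T-47D, and XBP1 and CA12 were lower. The folds of MYB, CXCL12, XBP1 and CA12 use the floor. The floor is a share of 0.854 in T-47D but 0.166 in LNCaP, which tilts such calls toward T-47D. A compared gene with no LNCaP loop is always called higher, so the calls of MYB and CXCL12 were fixed once they were compared. A gene with no T-47D loop needs more read pairs in LNCaP to be called: TFF1, with 58, was not called lower. The median log2 fold of the 9 genes was 2.24, beside 0.29 over all genes compared, of which 18.8% had no loop in T-47D and enter at the floor. Between Ishikawa and LNCaP, 1 of 7 genes compared was called higher and 5 lower, where 25.2% of 13421 genes were called higher and 40.6% lower. ADCY9 was the gene called higher, and of the 5 called lower all but XBP1 had no promoter loop in Ishikawa and use the floor. The median log2 fold of these 7 was -3.48, beside -1.29 over all genes. Both medians include the smaller part of the Ishikawa read pairs that lies in promoter loops. Per read pair of promoter loops, the median over all genes was -0.54, and 4 of the genes described here were called lower. Summed over the genes, 959 read pairs of T-47D, 212 of Ishikawa and 1514 of LNCaP were in promoter loops. These are shares of 273, 20.4 and 83.9. The summed share in T-47D was 3.26 times that in LNCaP (95% interval 3.0 to 3.53), and that in Ishikawa 0.243 times (0.209 to 0.281). GREB1 alone held 615 of the 959 read pairs in T-47D.

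**Figure D1:**
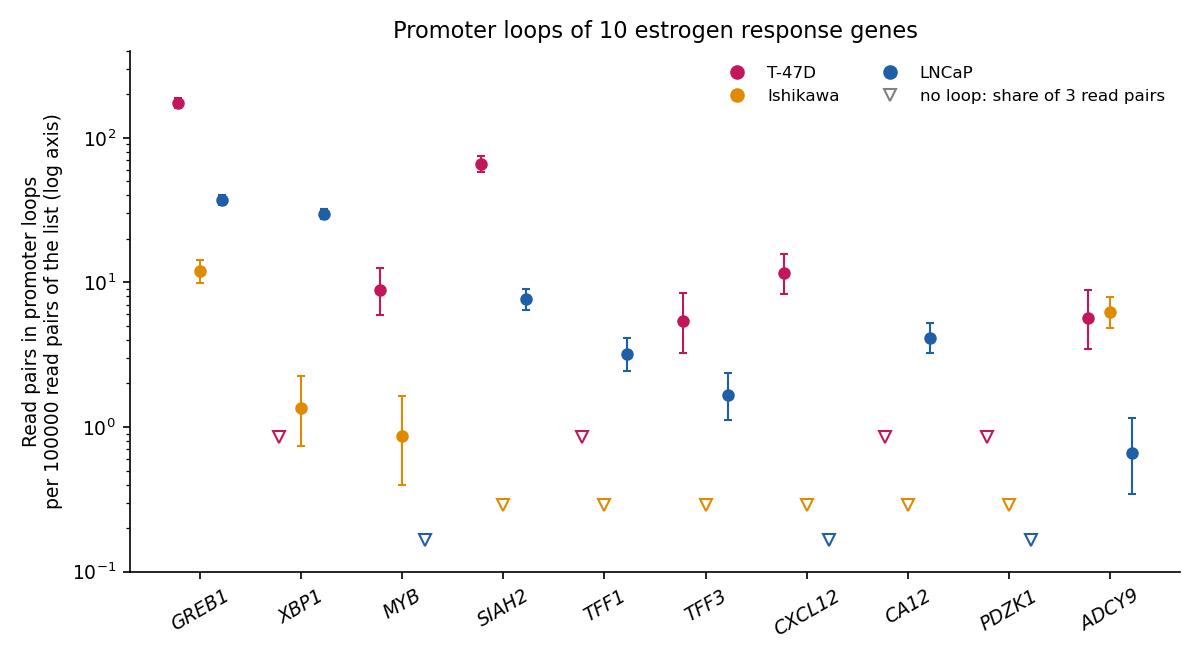
Read pairs in promoter loops of each gene per 100000 read pairs of the list, on a log axis, for T-47D, Ishikawa and LNCaP; points are shares, bars are exact Poisson 95% intervals, and open triangles mark the share of 3 read pairs where a gene had no loop. GREB1 has the highest share in each list, and the other genes have a different order in each.

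**Figure D2:**
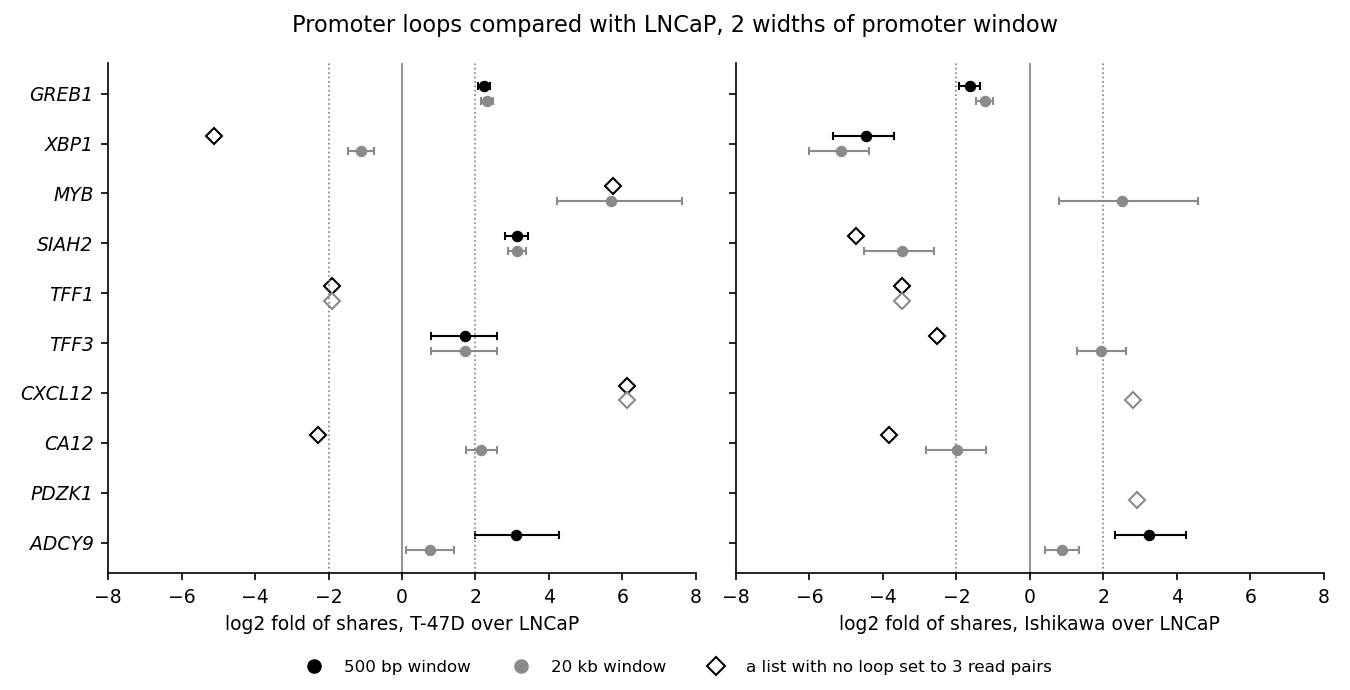
Log2 fold of the share of each gene in T-47D (left) and Ishikawa (right) over LNCaP, with windows of 500 bp (black) and 20 kb (grey) around start sites; bars are exact conditional 95% intervals, open diamonds are values with a list that had no loop set to 3 read pairs, and dotted lines mark 4-fold. CA12 in T-47D and TFF3 in Ishikawa lie on opposite sides of 0 with the 2 windows.

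GREB1, a coactivator of the estrogen receptor, lies at chr2:11622467-11782914 on the plus strand, and the annotation gives it start sites spread over the gene, so several anchors counted as its promoters. T-47D had 615 read pairs in its promoter loops (95% interval 567 to 666), Ishikawa had 124 (103 to 148) and LNCaP had 670 (620.2 to 723). The shares were 175 (162 to 189), 11.9 (9.91 to 14.2) and 37.1 (34.4 to 40.0), and the intervals of the shares did not overlap. This was 4.72-fold higher in T-47D than in LNCaP (4.22 to 5.27) and 3.11-fold lower in Ishikawa than in LNCaP (2.57 to 3.80), which is short of 4-fold. In T-47D the fold ranked at percentile 83.8 of all genes compared, and in Ishikawa at percentile 45.2, near the middle of that comparison. Scaling by the median ratio of all genes took the T-47D value under 4-fold, to a log2 fold of 1.59. With 1 start site, the T-47D value rose to a log2 fold of 3.25, and the Ishikawa value became -4.06, past 4-fold.

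Most read pairs of GREB1 stayed inside the gene: 509 of 615 in T-47D, 99 of 124 in Ishikawa and 594 of 670 in LNCaP. The strongest T-47D loop, with 122 read pairs, joined the anchor over the upstream start (chr2:11617788-11624859) to an anchor over an internal start 57.1 kb downstream, and LNCaP had 26 read pairs there. The upstream anchor in T-47D also reached an intronic anchor at +17.3 kb with 79 read pairs, against 29 in LNCaP. The strongest LNCaP loop, with 90 read pairs, ran from a further internal anchor (chr2:11693087-11702084) to +90.1 kb and had no counterpart in the other lists. T-47D had an anchor with the same start (chr2:11693087-11694662), and its loops to the internal and upstream promoter anchors held 22 and 21 read pairs, against 84 and 52 in LNCaP. The strongest Ishikawa loop, with 37 read pairs in 3 of the 4 separately sorted parts of its list, joined an internal promoter anchor to +45.3 kb. The parts, in the order of the list, held 24, 3, 40 and 57 read pairs of GREB1.

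The lists differed in their anchors over the ERE at +50.2 kb. The T-47D anchor over it (chr2:11671017-11672840) was joined to promoter anchors of GREB1 by 134 read pairs in 2 loops, and the Ishikawa anchor over it (chr2:11662195-11673396) by 45 read pairs in 2 loops. The latter also holds the ERE at +42.3 kb. In LNCaP no anchor lay over either element. Whether an anchor covers an element also depends on anchor width, with medians of 2.61 kb in T-47D, 5.10 kb in Ishikawa and 3.23 kb in LNCaP. The ERE at +30.6 kb had the other pattern, with 111 read pairs to promoter anchors in LNCaP, 19 in Ishikawa and no anchor in T-47D. A T-47D anchor at +25.6 kb lay within the same LNCaP anchor but outside the element, and it carried 35 and 23 read pairs to 2 promoter anchors. Only 2 GREB1 loops of T-47D were found in both other lists: the loop from the internal promoter to +17.3 kb (67 read pairs, against 6 in Ishikawa and 16 in LNCaP), and the loop from the upstream start to the promoter of E2F6, a transcriptional repressor, at -16.1 kb. The E2F6 loop held 37, 3 and 13 read pairs in T-47D, Ishikawa and LNCaP. The T-47D list has no upper limit of span, and 1 GREB1 loop of 3 read pairs spanned 12686 kb.

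**Figure D3:**
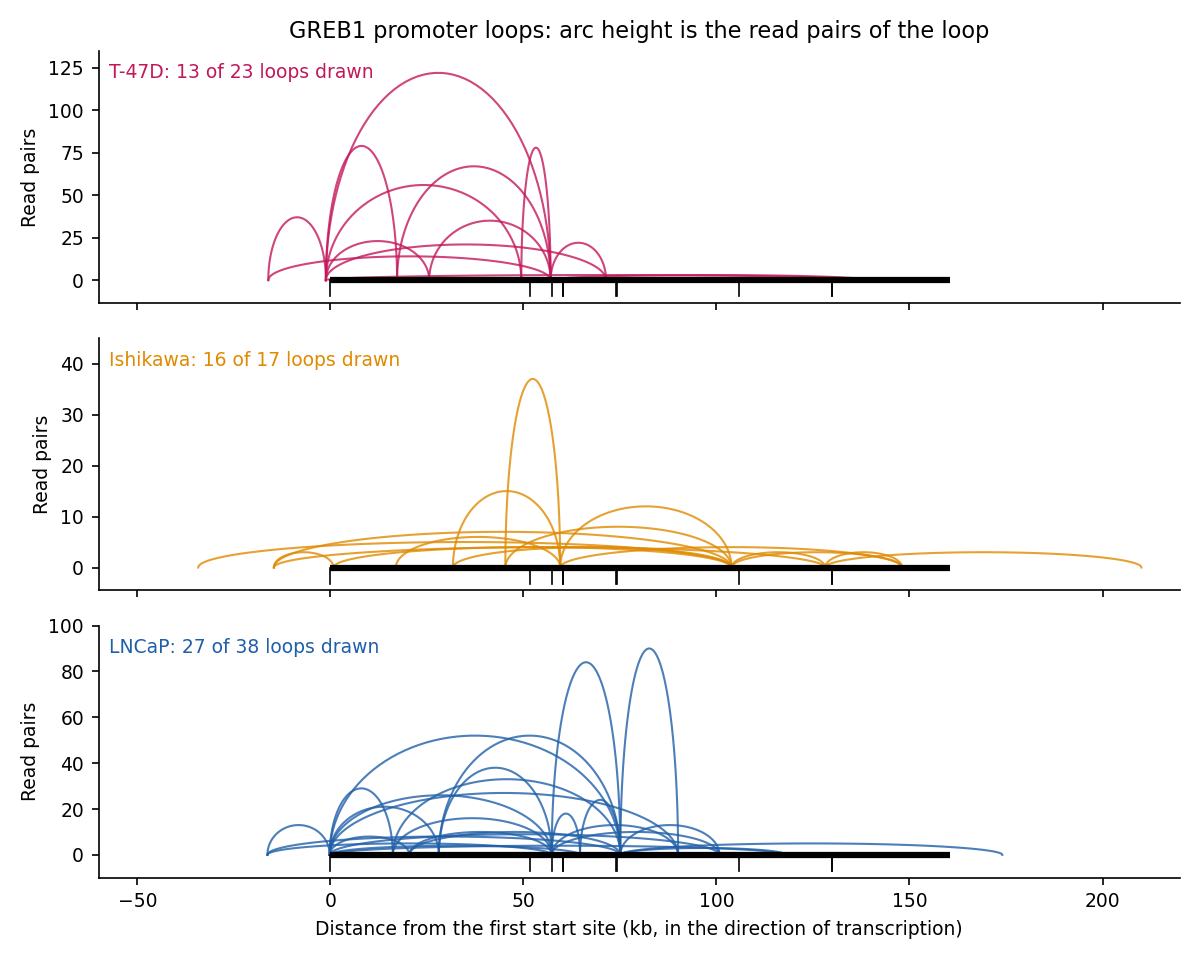
Promoter loops of GREB1 in T-47D, Ishikawa and LNCaP by distance from the upstream start site in kb; each arc joins the centres of 2 anchors, its height is the read pairs of the loop (each panel has its own scale), the black bar is the gene and ticks are start sites. The tallest T-47D arc, of 122 read pairs, starts at the upstream start, while the tallest LNCaP arc, of 90, lies in the middle of the gene.

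XBP1, a transcription factor of the unfolded protein response that luminal breast cells express strongly, lies at chr22:29190543-29196585 on the minus strand. Its promoter loops held 537 read pairs in LNCaP (493 to 584), 14 in Ishikawa (7.65 to 23.5) and none in T-47D. With T-47D set to the floor, the share was 34.8-fold lower in T-47D than in LNCaP, and it was 22.1-fold lower in Ishikawa (13.1 to 40.7). The T-47D value depends on where the anchors were placed and sets no limit. T-47D had no anchor over a start site, but had 1 on each side of the start sites, at chr22:29189216-29191024 and chr22:29202181-29203703, with 38 and 49 read pairs. Those anchors were joined to each other by 10 read pairs and to an anchor at -21.2 kb by 13 and 18. That anchor lies within the LNCaP anchor (chr22:29212667-29220923) that formed the strongest LNCaP loop, with 205 read pairs. They also reached the shared promoter anchor of CHEK2 and HSCB with 9 and 4 read pairs, and LNCaP joined XBP1 to that place with 37. With a window of 20 kb, chosen after seeing the data, XBP1 had 77 read pairs in T-47D against 852 in LNCaP, a share 2.15-fold lower (1.70 to 2.76), which is no longer past 4-fold. In Ishikawa the 20 kb window left the share 35.1-fold lower than in LNCaP.

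MYB, a transcription factor of proliferating cells, lies at chr6:135502446-135540311 on the plus strand. T-47D had 31 read pairs (21.1 to 44.0), Ishikawa had 9 (4.12 to 17.1) and LNCaP had no promoter loop. The share in T-47D was 53.1-fold higher than in LNCaP with the latter at the floor, and with 9 read pairs the Ishikawa value was too low to compare. The T-47D loops reached -35.0 kb and +29.8 kb with 8 read pairs each, and the promoter of HBS1L, a translation factor gene upstream, with 7. In LNCaP the nearest anchor, 3.24 kb from a start site, was joined to the HBS1L promoter by 4 read pairs.

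SIAH2, a ubiquitin ligase of the hypoxia response, lies at chr3:150458912-150481264 on the minus strand. It had 233 read pairs in T-47D (204 to 265), 138 in LNCaP (116 to 163) and no promoter loop in Ishikawa. The share was 66.3 in T-47D and 7.64 in LNCaP, 8.68-fold higher in T-47D (7.0 to 10.8), and with Ishikawa at the floor it was 26.5-fold lower there than in LNCaP. The strongest T-47D loop, with 127 read pairs, ran to the anchor that holds the exact ERE at +6.83 kb. The same loop held 37 read pairs in LNCaP. Ishikawa also had an anchor over this element, but its 3 loops, with 11 read pairs in all, did not reach the SIAH2 promoter. A further T-47D loop of 36 read pairs, to an upstream anchor at -7.0 kb, had no counterpart in LNCaP. The loop to the shared promoter anchor of EIF2A and SERP1 held 14 read pairs in T-47D and 12 in LNCaP, which are shares of 3.99 and 0.665. The loop to that of SELENOT and SERP1 held 9 and 10, shares of 2.56 and 0.554, so both had a higher share in T-47D.

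**Figure D4:**
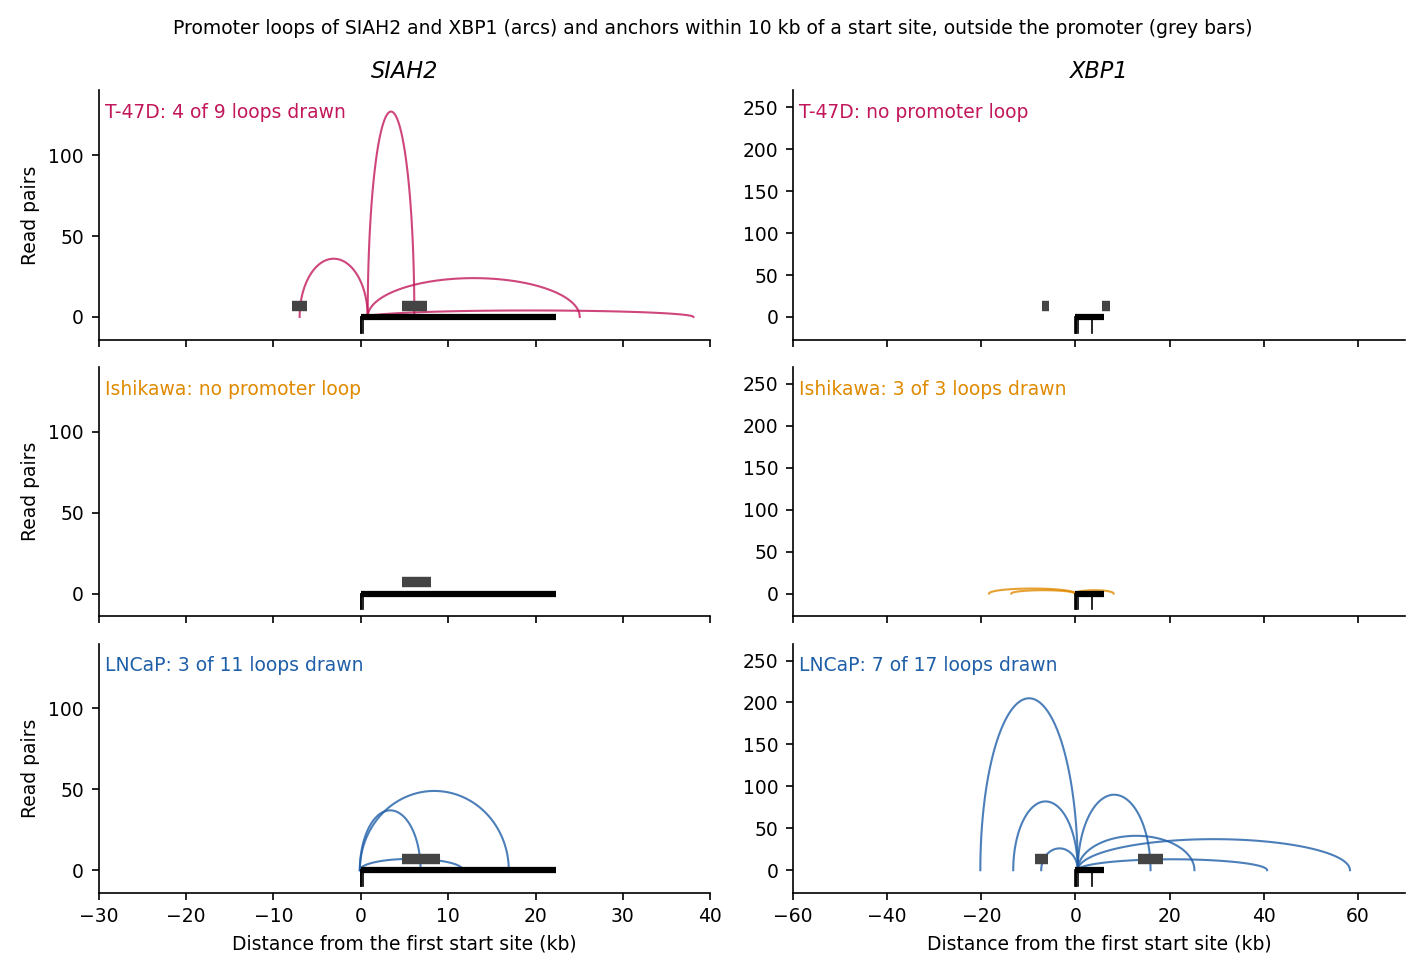
Promoter loops of SIAH2 (left) and XBP1 (right) in each list by distance from the upstream start site in kb; arc height is the read pairs of the loop, the black bar is the gene, ticks are start sites, and grey bars are anchors within 10 kb of a start site but outside the promoter that have further loops. The SIAH2 loop to the ERE anchor is the tallest in T-47D, with 127 read pairs, and T-47D anchors lie on both sides of the XBP1 start sites but not over them.

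TFF1 and TFF3 encode small secreted proteins that protect mucosal surfaces, and they lie near each other at chr21:43782391-43786644 and chr21:43731777-43735519, both on the minus strand. TFF1, although widely used as a readout of estrogen action in breast cells, had no promoter loop in T-47D or Ishikawa and 58 read pairs in 14 loops in LNCaP (44.0 to 75.0). The nearest T-47D anchor was 22.1 kb from its start site. With the floor, T-47D was 3.76-fold lower than LNCaP, short of 4-fold, and Ishikawa 11.1-fold lower. The T-47D value passed 4-fold with median-ratio scaling (log2 fold -2.56) and per read pair of promoter loops (-2.13). The LNCaP promoter anchor of TFF1 holds the element at -0.399 kb printed above. Its loops were weak, with 8 read pairs in the strongest.

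TFF3 had 19 read pairs in T-47D (11.4 to 29.7), 30 in LNCaP (20.2 to 42.8) and none in Ishikawa. The share was 3.26-fold higher in T-47D than in LNCaP (1.73 to 5.98), not past 4-fold, and 5.76-fold lower in Ishikawa with the latter at the floor. The T-47D value passed 4-fold when the minimum of read pairs per loop was scaled to the depth of each list (log2 fold 4.29) and with spans of 20 kb to 1 Mb (2.43). In T-47D and LNCaP, TFF3 was joined to an anchor with the same coordinates, chr21:43756542-43759567 at -22.5 kb, by 8 read pairs of T-47D and 5 of LNCaP. In LNCaP this anchor was also the strongest partner of TFF1, and 1 loop of 6 read pairs joined both promoters. The Ishikawa call rested on the window: an Ishikawa anchor ended 3.38 kb from the nearest start site (chr21:43717635-43730411). It had 66 read pairs, of which 46 ran to an ABCG1 promoter. With a window of 20 kb the share became 3.82-fold higher in Ishikawa than in LNCaP (2.44 to 6.09). In T-47D the anchor covered the TFF3 window only in part, and with the whole window required inside it, the log2 fold over LNCaP was -0.96.

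CXCL12, a chemokine that acts on the receptor CXCR4, lies at chr10:44865613-44881941 on the minus strand. It had promoter loops in T-47D alone, with 41 read pairs (29.4 to 55.6) in 5 loops, and the share was 70.2-fold higher than in LNCaP at the floor. A single loop held 29 of these and joined the promoter to an intergenic anchor 213 kb downstream, and the other 4 loops were at the minimum of 3. The T-47D promoter anchor (chr10:44877261-44881094) covered a start site inside the gene but not the outermost one. With 1 start site per gene, CXCL12 could not be compared, and 4 genes were called higher in T-47D. In LNCaP the nearest anchor was 175 kb from the promoter. In Ishikawa an anchor lay 3.80 kb away, and with the window of 20 kb 12 read pairs were counted there, 6.94-fold higher than in LNCaP at the floor.

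CA12, a carbonic anhydrase of the cell surface, lies at chr15:63613577-63674045 on the minus strand. It had promoter loops in LNCaP alone, with 75 read pairs (59.0 to 94.0) in 10 loops, so with the floor T-47D was 4.86-fold lower and Ishikawa 14.4-fold lower. The T-47D value, a log2 fold of -2.28, was under 4-fold with a minimum of 5 read pairs per loop (-1.98), of 10 (-0.52) or scaled to depth (-0.96), with spans of 20 kb to 1 Mb (-1.95) and with loops counted (-1.49). The T-47D call also turned with the window. T-47D had a pair of anchors upstream of the promoter, 6.07 kb away at the nearest, at chr15:63680113-63681571 and chr15:63682280-63683528, with 79 and 52 read pairs, of which 36 joined the anchors to each other. They reached the USP3 promoter with 12 and 5 read pairs, a place that LNCaP joined to the CA12 promoter with 8. With the window of 20 kb, CA12 had 95 read pairs in T-47D and 109 in LNCaP, a share 4.48-fold higher in T-47D (3.37 to 5.95).

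ADCY9, an adenylate cyclase that makes cyclic AMP, lies at chr16:4003388-4166443 on the minus strand. Besides GREB1 it was the only one of the genes with promoter loops in every list, at 20 read pairs (12.2 to 30.9) for T-47D, 65 (50.2 to 82.8) for Ishikawa and 12 (6.20 to 21.0) for LNCaP. The Ishikawa parts held 6, 3, 23 and 33 of the 65. The shares of 5.69 in T-47D (3.48 to 8.79) and 6.25 in Ishikawa (4.82 to 7.96) had overlapping intervals, and both were higher than that of 0.665 in LNCaP, 8.57-fold (3.99 to 19.2) and 9.40-fold (5.03 to 19.1). T-47D and LNCaP used a promoter anchor with identical coordinates (chr16:4165348-4168314) yet shared none of its loops. The strongest T-47D loop, with 6 read pairs, ran to -35.3 kb. The strongest LNCaP loop, with 5, ran to +18.2 kb inside the gene, where Ishikawa had 6. With a minimum of 5 read pairs per loop, too few were left to compare ADCY9 between T-47D and LNCaP. With the window of 20 kb, which takes in intragenic anchors of LNCaP, both folds fell below 4, to 1.71 (1.07 to 2.68) for T-47D and 1.84 (1.34 to 2.53) for Ishikawa.

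PDZK1, a scaffold protein of the cell membrane, lies at chr1:145726918-145764207 on the plus strand and had no promoter loop in any list, so it could not be compared. With the window of 20 kb Ishikawa alone had 13 read pairs, from an anchor at -13.4 kb, 7.52-fold higher than in LNCaP at the floor.

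Loops were also looked for in the other lists. Of the 51 promoter loops in T-47D, 13 were found in LNCaP, meaning that both anchors overlapped those of 1 LNCaP loop. This is 25.5%, where 45.9% of all T-47D promoter loops were found in LNCaP. The order turned with the minimum of read pairs per loop: with 5 it was 41.9% against 48.2% of all, and with 10 it was 58.8% (10 of 17 loops) against 48.1%. In Ishikawa 7.84% of them were found, where 10.3% of all T-47D promoter loops were. Of the 38 Ishikawa loops, 10.5% were found in T-47D (5.40% of all) and 26.3% in LNCaP (10.9% of all). Of the 98 LNCaP loops, 14.3% were found in T-47D (15.6% of all) and 10.2% in Ishikawa (7.37% of all). With minimums of 5 and 10 the LNCaP loops found in T-47D were 24.6% and 29.4%, against 14.3% and 11.3% of all. The loops found in both other lists, 2 of T-47D, 2 of Ishikawa and 3 of LNCaP, belonged to GREB1.

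The distal anchors joined to the genes numbered 29 for T-47D, 23 for Ishikawa and 45 for LNCaP. The exact ERE occurred 2 times in the 69.8 kb of these anchors in T-47D, 3 times in 117 kb in Ishikawa and 2 times in 205 kb in LNCaP. This is 2.86, 2.56 and 0.976 per 100 kb, beside 0.273, 0.102 and 0.0740 over all distal anchors joined to a promoter in the same lists. These few matches all belong to GREB1 and SIAH2 and are the 4 elements printed above, some of them in more than 1 list. With 1 letter allowed to differ the densities lay closer to those of all distal anchors, at 10.0 against 3.93 per 100 kb in T-47D, 7.67 against 2.54 in Ishikawa and 3.41 against 2.41 in LNCaP. By share of anchors, 6.90% of the T-47D, 8.70% of the Ishikawa and 4.44% of the LNCaP anchors held 1, against 0.723%, 0.605% and 0.273% of all. The androgen response element, spelled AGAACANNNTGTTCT and searched in the same way on both strands, had no exact match in any anchor of the genes. Over all distal anchors its exact density was only 0.0195, 0.0227 and 0.0607 per 100 kb in T-47D, Ishikawa and LNCaP, so this absence tells little. With 1 letter different, LNCaP had 1 match in distal anchors (0.488 against 0.842 per 100 kb over all). It had 2 in promoter anchors (4.05 against 0.516), and the other lists had none. Neither motif, with at most 1 letter different, was present in the windows of 250 bases before to 50 after the gene starts of the 10 genes. Over all genes, 0.0546% of such windows held the exact ERE and 0.689% held it with 1 letter different. A match describes the reference sequence, not binding.

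A further list of 30 genes known to respond to estrogen was compared in the same way. In T-47D 14 of 23 compared genes were called higher than in LNCaP and 3 lower, with a median log2 fold of 3.36. Over all genes compared, 19.1% were called higher and 13.5% lower, with a median of 0.29. In Ishikawa 9 of 22 were called higher and 5 lower, with a median of 0.83. There 25.2% of all genes compared were called higher and 40.6% lower, with a median of -1.29. In the T-47D comparison PGR, KRT19, IGFBP4, RAPGEFL1, OLFM1, RERG and TPBG had no LNCaP loop, so their calls were fixed once they were compared. The same held in the Ishikawa comparison for IGFBP4, RERG, KRT19, OLFM1, EGR3 and RAPGEFL1. Of all genes compared, 5.07% had no LNCaP loop in the T-47D comparison and 17.8% in the Ishikawa comparison. PGR, the progesterone receptor, had 517 read pairs in T-47D and none in LNCaP, 886-fold higher with LNCaP at the floor. CTSD, a lysosomal protease, had 301 against 3, a ratio of 516 (175 to 2515). KRT19, an epithelial keratin, had 296 against 0, 507-fold by the floor, and IGFBP4, which binds insulin-like growth factors, 172 against 0, 295-fold. RAPGEFL1 with 117 and OLFM1, a secreted glycoprotein gene, with 65 read pairs also had none in LNCaP. In Ishikawa IGFBP4 had 180 and RERG, a Ras-related growth inhibitor, 164 read pairs, 104-fold and 94.9-fold higher than in LNCaP at the floor. NRIP1, a corepressor of nuclear receptors, went the other way, with none in Ishikawa and 580 in LNCaP, 111-fold lower by the floor. Of 10 androgen response genes used for comparison, 8 were called lower in T-47D and 9 in Ishikawa than in LNCaP, and none was called higher. Over all genes compared, 13.5% were called lower in T-47D and 40.6% in Ishikawa. KLK3 and KLK2, which encode prostate kallikreins, share their 2936 LNCaP read pairs, because the same loops touch both promoters.

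**Figure D5:**
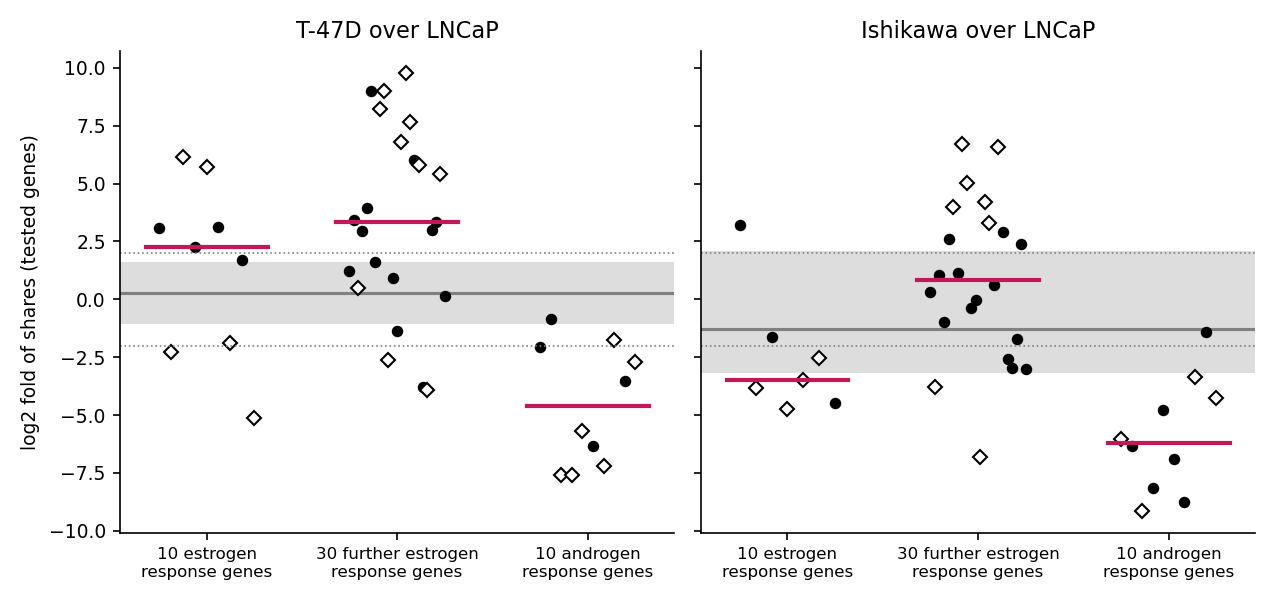
Log2 fold of shares in T-47D (left) and Ishikawa (right) over LNCaP for the compared genes of 3 lists; filled points are ratios, open diamonds are values with a list set to 3 read pairs, red lines are medians, the grey line and band are the median and the range between the quartiles of all genes compared, and dotted lines mark 4-fold. The medians in T-47D are 2.24, 3.36 and -4.61, and in Ishikawa -3.48, 0.83 and -6.20.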

How the data were processed

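H3K27ac HiChIP loops of 7 samples were analysed as the 3 deposited lists. The authors aligned reads to hg19, processed them with HiC-Pro, called loops with hichipper, removed loops under 3 read pairs or with a false discovery rate of 0.05 or more, and combined samples. No versions of these tools are given in the sources used here. The deposited value of a loop is a count of read pairs, not scaled for depth. Within 6 bases, 34583 of 34584 T-47D anchor edges and all checked edges of the other lists fell on GATC sites of GRCh37, so this genome was used. The lists were filtered differently: LNCaP spans run from 5 kb to 2 Mb, and LNCaP has no anchor joined to itself, whereas T-47D and Ishikawa have both.

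Loops were summed over the 4 separately sorted parts of the Ishikawa list, and the parts could not be assigned to samples or treatments. Start sites came from GENCODE release 44 lifted to GRCh37. Shares, folds with a floor of 3 read pairs, and intervals were computed with Python 3.11.15, pandas 2.3.3, numpy 2.4.6 and scipy 1.17.1. Genes with 10 or more read pairs in either list were compared and called at 4-fold. The code was tested on simulated data. A loop was found in another list when both anchors overlapped by 1 bp or more. Motifs were searched on both strands.

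The genes and lists were chosen with earlier results of these data known. All 10 genes, the 3 strongest loops of each gene and at most 8 called genes of the further estrogen list, by fold, were to be named, and other loops were named after their values were seen. The alternatives concerned the minimum of read pairs, span, promoter window, start sites, scaling, overlap and Ishikawa parts. No columns of other samples were present. Some marker values are not reported here.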

Additional observations from a re-analysis of the deposited data

Results flagged for a closer look

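Anchors joined to themselves are not loops and were left out of the comparisons, but those over promoters of the genes carried signal in T-47D and Ishikawa. In T-47D the promoter anchors of GREB1 held 365 such read pairs, those of SIAH2 69, MYB 23, CXCL12 12, TFF3 9 and ADCY9 7. In Ishikawa those of GREB1 held 32 and those of ADCY9 22. The LNCaP list has no such rows, so these counts have no counterpart there.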

How the results depend on the processing

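The folds of single genes were recomputed 190 times. Of 85 values with loops in both lists, 54 moved by less than the counting error and 31 further. Of 105 that use the floor, 53 moved by less than the counting error of the list with loops, 50 further and 2 reversed a called value. Calls of 4-fold were kept 131 times, lost or turned 24 times and gained 5 times (TFF3 and TFF1 in T-47D, GREB1 in Ishikawa). Both reversals came from the window of 20 kb, chosen after seeing the data: CA12 in T-47D over LNCaP became 2.16 on the log2 scale, and TFF3 in Ishikawa over LNCaP became 1.93.

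The count of genes called higher in T-47D (5) fell to 3 with a minimum of 10 read pairs per loop and to 3 when loops were counted instead of read pairs. The count called lower in T-47D (2) was 1 with a minimum of 5 or 10 read pairs, with a minimum scaled to depth, with spans of 20 kb to 1 Mb and with loops counted, and 0 with the window of 20 kb. The count called higher in Ishikawa (1) was 2 with a window of 2 kb and 3 with 20 kb. Those called with 20 kb were MYB, CXCL12 and PDZK1, and ADCY9 was no longer called. The count called lower in Ishikawa (5) was 3 with a minimum of 5 read pairs or the window of 20 kb, and 2 with a minimum of 10 or one scaled to depth. Of the further estrogen response genes, 9 were higher in Ishikawa, and 5 with spans of 20 kb to 1 Mb and 4 with loops counted. The 8 androgen response genes lower in T-47D were 5 with loops counted.

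The summed share in T-47D over LNCaP (3.26) was 3.62 and 4.21 with minimums of 5 and 10 read pairs, 2.71 with the minimum scaled to depth, 2.80 per read pair of promoter loops, 2.08 with median-ratio scaling and 1.85 by loops. Distal anchors fell from 29 to 8 in T-47D, 23 to 4 in Ishikawa and 45 to 17 in LNCaP with 10 read pairs, and to 6 in Ishikawa when loops had to be in 2 or more parts. With an overlap of 50%, T-47D loops found in Ishikawa fell to 0% (0.569% of all promoter loops) and in LNCaP to 11.8% (20.3% of all). Ishikawa loops found in T-47D fell to 0% (0.328% of all) and in LNCaP to 5.26% (1.64% of all). LNCaP loops found in T-47D fell to 6.12% (7.20% of all) and in Ishikawa to 2.04% (0.997% of all). With minimums of 5 and 10 read pairs, T-47D in LNCaP was 41.9% and 58.8% and LNCaP in T-47D 24.6% and 29.4%, and with 5, Ishikawa in LNCaP was 45.5%. Exact EREs per 100 kb of distal anchors were 10.5 in T-47D and 11.0 in Ishikawa in anchors of loops with 10 or more read pairs, and Ishikawa had 7.67 with 1 letter different. The cause of these moves was not tested.

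Scaling moved the split of all genes. Against 19.1% higher and 13.5% lower in T-47D, median-ratio scaling gave 12.5% and 20.2% and the minimum scaled to depth (3 read pairs for T-47D, 9 for Ishikawa, 16 for LNCaP) gave 38.2% and 13.2%. Against 25.2% and 40.6% in Ishikawa, the splits were 31.2% and 25.0% with median-ratio scaling, 28.8% and 29.9% per read pair of promoter loops and 30.4% and 29.3% with the window of 20 kb. The median log2 fold of all genes was -0.36 for T-47D and -0.14 for Ishikawa after median-ratio scaling. In Ishikawa, TFF3 was under 4-fold with 6 alternatives besides the window of 20 kb, CA12 with 10 read pairs (-1.74), the scaled minimum (-1.49) or that window (-1.97), and TFF1 with 5 (-1.93, log2). GREB1 in T-47D was under 4-fold with the scaled minimum (1.90) and by loops (1.10), and SIAH2 by loops (1.54). No paired analysis was possible because each cell line is 1 combined list with no columns for replicates, and no replicate could be left out for that reason. Depth limits weak genes: 1 loop at the minimum of 3 read pairs is a share of 0.854 in T-47D.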
